A study of Homo sapiens with 12 samples.

Results

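Integrins are cell-surface receptors that tie a cell to the extracellular matrix and to its neighbours. Each receptor is a pair of transmembrane proteins, 1 α and 1 β subunit, which assemble in the endoplasmic reticulum before they reach the surface, and the pairing decides which ligand is bound. The β1 subunit (ITGB1) is the most widely shared partner, joining most α subunits, while the αV subunit (ITGAV) can pair with β1, β3, β5, β6 or β8. The genes described here are 10 of the 26 integrin subunits: the β subunits ITGB1, ITGB3, ITGB5 and ITGB8 and the α subunits ITGA2, ITGA3, ITGA4, ITGA5, ITGA6 and ITGAV. They were taken by symbol from the 23615 rows of a gene table, and all 10 were found. ITGB1 was picked because it was lower in a cell line with HuR knocked down, so the differences between the lines are given below as descriptions with their errors, and where the number of subunits past a test's threshold is printed for them nothing is read from it. The responses to the treatments were not used in the choice and were tested, though they share libraries with the line differences.

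The study measured RNA in HEK293T, a human embryonic kidney cell line, asking what the RNA-binding protein HuR (gene ELAVL1) does to the response of these cells to a lipid electrophile and to an oxidant. A lentivirus gave the cells a short hairpin RNA, and both resulting lines were selected with puromycin. The shHuR line carried a hairpin directed at HuR and the shControl line one that served as the control. Each line was left untreated, exposed to the alkyne analogue of 4-hydroxynonenal (HNE, a reactive aldehyde from lipid peroxidation, at 25 µM) or exposed to hydrogen peroxide (H2O2, at 225 µM), for 18 h. The 6 groups held 2 replicates each, 12 libraries in all. Each line is a selected population made with 1 hairpin, so an effect of HuR and an effect of the hairpin or of the population cannot be told apart. In bulk RNA, fewer cells with a transcript and less of it per cell cannot be told apart either.

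Libraries held 24855946 to 29907256 counts. ELAVL1, the hairpin's target, ran from 86 to 99.4 CPM (counts scaled to a common library size) in shControl and from 69.3 to 74.5 CPM in shHuR, so that it fell by 0.38 on the log2 scale (SE 0.0405, adjusted p = 2.6e-06 by edgeR). Among 8 genes that HEK293T cells are known for, VIM, NEFL and KRT18 stood at 30.3 CPM or more in every library, while PAX2 and LHX1 reached at most 0.491 and 1.22 CPM. The summed level of these 8 genes was 657 to 720 CPM in shControl and 524 to 586 CPM in shHuR. NEFL (-0.47), KRT8 (-0.38) and VIM (-0.37) were called lower there and NEFM (1.10) higher, on the log2 scale (edgeR adjusted p from 9.81e-08 to 0.00174). Their part in the integrin differences was not tested. Markers of endothelial cells (4 genes) summed to at most 0.613 CPM, and the leukocyte markers PTPRC and CD3E reached at most 2 counts and 1 count in a library. The 5 leukocyte markers summed to 5.94 to 9.44 CPM, most of it LYZ. The 6 fibroblast markers summed to 7.13 to 11.5 CPM, and of the 4 tested none was called.

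The order of the 10 subunits was read from FPKM (fragments per kilobase of gene, scaled for library size), which scales for gene length and allows levels of different genes to be compared. ITGB1 was the most abundant in every library, from 26.9 to 69.7 FPKM. ITGAV came next at 15.1 ± 1.64 FPKM (SD, n = 12), followed by ITGB5 at 9.20 ± 0.860 FPKM (SD, n = 12). ITGA6 (7.13 ± 0.372 FPKM) and ITGA5 (5.97 ± 0.465 FPKM) lay close together: their ranges over the 12 libraries overlapped, although ITGA6 was the higher in each of the 12. ITGA2 followed at 3.32 ± 0.360 FPKM, ITGA4 at 1.79 ± 0.198 FPKM and ITGA3 at 1.05 ± 0.191 FPKM (SD, n = 12 each), the last 2 again with overlapping ranges. ITGB8 (0.198 ± 0.0298 FPKM) and ITGB3 (0.196 ± 0.0799 FPKM) were at the bottom and could not be ordered, ITGB8 being the higher in 8 of 12 libraries.

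**Figure D1:**
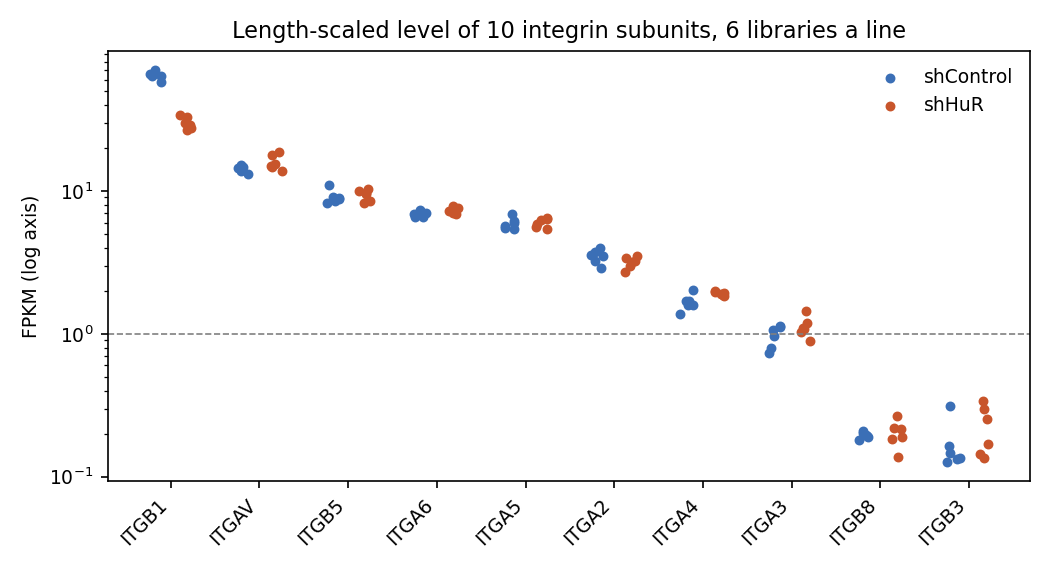
Each point is the FPKM of 1 library on a log axis, 6 libraries a line, with genes ordered by their mean and a dashed line at 1 FPKM. ITGB1 is the gene whose 2 lines separate, at 57.5 to 69.7 FPKM in shControl and 26.9 to 33.8 FPKM in shHuR, and ITGB8 and ITGB3 lie under 0.34 FPKM in every library.

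These levels decide what can be judged. ITGB3 had 15 to 45 counts in a library and ITGB8 35 to 57, so that counting alone gives an error of about 19.8% and 14.6% of the value in a single library. Both passed the filter on low counts but are too low to judge: over all treatments the 95% interval of the line difference ran from -0.20 to 0.89 for ITGB3 and from -0.32 to 0.38 for ITGB8, on the log2 scale. ITGA3, the α subunit of a laminin receptor, is borderline with 96 to 182 counts (counting error about 8.43%) and 0.733 to 1.45 FPKM. The other 7 had at least 203 counts in every library.

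ITGB1, the shared β subunit, stood lower in all 6 shHuR libraries than in any of the 6 shControl libraries. In untreated cells it was at 233 and 243 CPM in the shControl replicates and at 106 and 98.8 CPM in the shHuR replicates. With HNE it was at 240.5 and 235 CPM in shControl and 121 and 124 CPM in shHuR. With H2O2 it was at 256 and 212.5 CPM in shControl and 101 and 110.5 CPM in shHuR. The lowest shControl library thus stood well above the highest shHuR library, and the treatments did not bring the lines together.

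Over treatments the shControl libraries averaged 237 ± 14.4 CPM of ITGB1 and the shHuR libraries 110.2 ± 10.3 CPM (SD, n = 6 each), and the fitted fold was 0.465. The log2 difference, shHuR against shControl, was -1.21 (SE 0.0857) in untreated cells, -0.96 (SE 0.0850) with HNE and -1.15 (SE 0.0854) with H2O2, and -1.11 (SE 0.0533) over all treatments. It stayed between -1.13 and -1.06 under 21 other ways of processing the counts or leaving out a library. Of 16005 genes tested, 106 were called with a difference at least as negative as that of ITGB1. ITGB1 was the 1 member of 10 whose 6 shHuR and 6 shControl libraries did not overlap downwards, and none did so upwards, where 6.84% and 5.25% of all tested genes did. As ITGB1 was chosen on this contrast, nothing is read from that count.

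**Figure D2:**
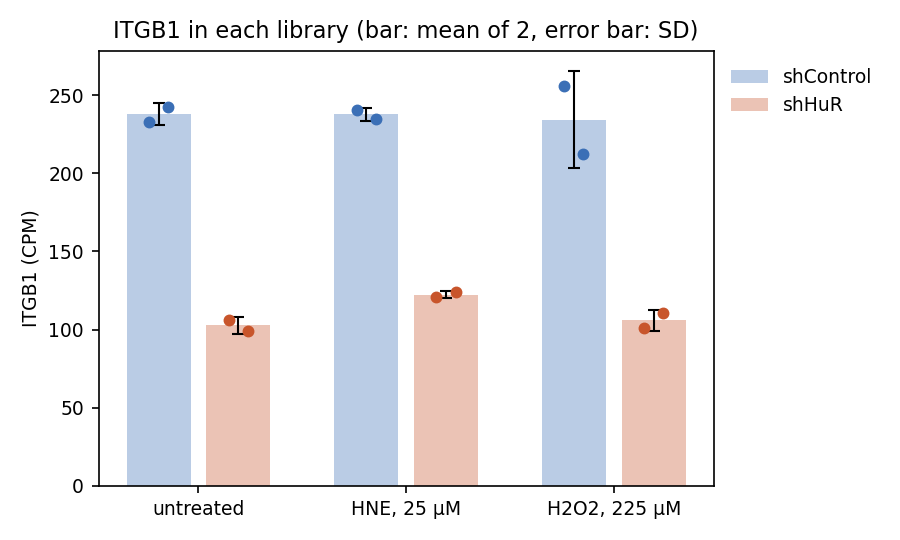
ITGB1 in CPM for each library (points), with the mean of the 2 replicates (bar) and their SD (error bar), for untreated, HNE-treated and H2O2-treated cells of both lines. The shControl libraries lie between 212.5 and 256 CPM and the shHuR libraries between 98.8 and 124 CPM.

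The sequence of the shHuR hairpin was compared with the members' transcripts after the ITGB1 values had been seen, because a hairpin's antisense strand can pair with other transcripts through its bases 2 to 8, the seed. The strands and matches are shown 5′ to 3′ with T for U, with the seed in capitals in the antisense strand and, in the transcripts, the letters AGTTTGC that pair with it, plus the following A where base 1 pairs as well.
shHuR antisense strand: tGCAAACTtcactgtgatggg
ELAVL1 target, coding sequence: cccatcacagtgaAGTTTGCA
ITGB1 3′ UTR: ttacaaatatgtcAGTTTGCA
ITGB5 coding sequence: cacgaccggagggAGTTTGCA

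The ELAVL1 target lies at chr19:7967669-7967689 on the minus strand and the ITGB1 match at chr10:32901167-32901187 on the minus strand, 468 bases after the stop codon (GRCh38, GENCODE release 29). Apart from the match the ITGB1 window has little in common with the target. Of its 21 bases 10 are the same, and these include the 8 letters of the match. Of the 10 members ITGB1 alone has the 7 letters in its 3′ UTR. ITGB5 has the match in its coding sequence (chr3:124764430-124764450, minus strand), and the ITGB1 transcript used has 2 further 7-base matches there. Among 3′ UTRs of 0.8 to 1.2 times the length of that of ITGB1 (1323 bases), 2.99% hold the 8 letters AGTTTGCA and 8.0% the 7 letters.

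Across the transcriptome, genes with and without the match had close medians. The 707 tested genes with all 8 letters in the 3′ UTR had a median log2 difference between lines of -0.005, and the 10405 genes with no match anywhere had a median of 0.006. Genes called lower made up 18.7% of the former and 15.6% of the latter, and genes called higher 15.3% and 15.1%. The 3′ UTRs with the match were also longer (median 3343 against 1150 bases). Among the 707 genes ITGB1 had rank 5 from the lowest difference, while 106 of all 16005 tested genes were called with a difference at least as negative. As ITGB1 was chosen on this contrast, nothing is read from the rank. Whether the hairpin acts on ITGB1 RNA was not tested.

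HuR binds U-rich and AU-rich RNA, mostly in introns and 3′ UTRs, and is known for protecting such transcripts from decay. The 3′ UTRs of the members were therefore searched on the transcript strand for ATTTA (the AUUUA pentamer) and for TTTTTTT (a run of 7 U), overlapping copies included. Of the windows in ITGB1, the ATTTA window richest in T and the single run of 7 are shown, with the motif in capitals.
ITGB1, 869 bases after the stop: cttttgagttgaATTTAttttattatttt
ITGB1, 964 bases after the stop: tggggtaagacTTTTTTTatgagtacttt

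The first window is at chr10:32900757-32900785 and the second at chr10:32900661-32900689, both on the minus strand (GRCh38). ITGB1 holds 6 copies of ATTTA, against a median of 2 in 2439 3′ UTRs of like length, of which 80.4% hold at least 1 copy and 47.9% hold TTTTTTT. All 10 members have ATTTA and 6 have TTTTTTT. ITGAV has 21 copies of ATTTA in 3609 bases (median 7 in 3′ UTRs of like length) and ITGB8 26 copies in 5757 bases (median 12). ITGB5 and ITGA3 have 1 copy each (medians 3 and 2), and ITGA5 has 2, the median for its length. ITGAV was the densest of the 10 at 5.82 copies per kilobase, against 4.54 in ITGB1. Whether these motifs bear on the line differences was not tested. A match to these letters is a description and not a binding site.

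The other β subunits did not share the ITGB1 pattern. ITGB5, which with αV forms a vitronectin receptor, was at 26.7 to 35.6 CPM in shControl (median 28.6) and 26.6 to 33.1 CPM in shHuR (median 30.8). The lines overlapped almost fully, and the log2 difference over treatments was 0.04 (95% interval -0.10 to 0.18). ITGB3, the β3 subunit of the platelet and αV receptors, was at 0.613 to 1.5 CPM in shControl and 0.645 to 1.61 CPM in shHuR. ITGB8, whose pairing with αV activates latent TGF-β, was at 1.59 to 1.83 CPM in shControl and 1.21 to 2.32 CPM in shHuR. For both the libraries of the 2 lines overlapped.

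Among the α subunits ITGAV, which recognises vitronectin, fibronectin and latent TGF-β, was at 91.7 to 105 CPM in shControl (median 99.2) and 96.4 to 130 CPM in shHuR (median 106). The ranges overlapped, the 2 highest values being the HNE-treated shHuR libraries. Its log2 difference was 0.15 over treatments (SE 0.0452), from 0.04 untreated (SE 0.0692) and 0.15 with H2O2 (SE 0.0692) to 0.28 with HNE (SE 0.0689). ITGA4, a receptor subunit for fibronectin and VCAM1, was at 8.30 to 12.1 CPM in shControl and between 11.08 and 11.95 CPM in shHuR. All its shControl libraries but 1, replicate 1 of the H2O2 group, lay below the lowest shHuR library. Its log2 difference was 0.20 (SE 0.0798). With 1 library left out it ran from 0.16 to 0.26, the highest being without that library.

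ITGA2, a collagen receptor subunit, was at 22.6 to 31.2 CPM in shControl (median 27.8) and 21.3 to 27.5 CPM in shHuR (median 24.95). The log2 difference was -0.14 (SE 0.0781) over treatments and -0.34 (SE 0.131) in untreated cells, where the replicates were at 27.6 and 29.1 CPM in shControl and 21.3 and 23.5 CPM in shHuR. Without HNE-treated shControl replicate 2 the difference over treatments was -0.205. The fibronectin receptor subunit ITGA5 had medians of 24.2 CPM in shControl and 25.0 CPM in shHuR, a log2 difference of 0.00 (95% interval -0.12 to 0.12). The laminin receptor subunits ITGA6 and ITGA3 differed by 0.08 (95% interval -0.03 to 0.18) and 0.21 (95% interval -0.07 to 0.49).

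For description only, since the rule for the members used this contrast, the number of members past the threshold of edgeR's test was 2 of 10 over all treatments (ITGB1 lower, ITGAV higher), against 29.9% of all tested genes. It was 1 in untreated cells (7.98% of all genes), 2 with HNE (8.27%) and 1 with H2O2 (7.19%), with ITGB1 among them each time and ITGAV with HNE. The number over all treatments was 3 when libraries were scaled by size alone, with ITGA4 higher as well (0.225, edgeR adjusted p = 0.0483). Of all 16005 tested genes 4765 were called in that fit. The number in untreated cells was 2 when either HNE-treated shControl library was left out, and with HNE it was 1 when either HNE-treated shHuR library or HNE-treated shControl replicate 2 was. The numbers over all genes also moved with 1 library left out: 1277 ran from 242 to 2055 in untreated cells, 1324 from 164 to 1890 with HNE and 1151 from 290 to 1845 with H2O2. They were lowest without untreated shControl replicate 2, HNE-treated shHuR replicate 2 and H2O2-treated shHuR replicate 1. The median log2 difference of the 10 members was 0.06 and that of all tested genes 0.00 (-0.002).

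**Figure D3:**
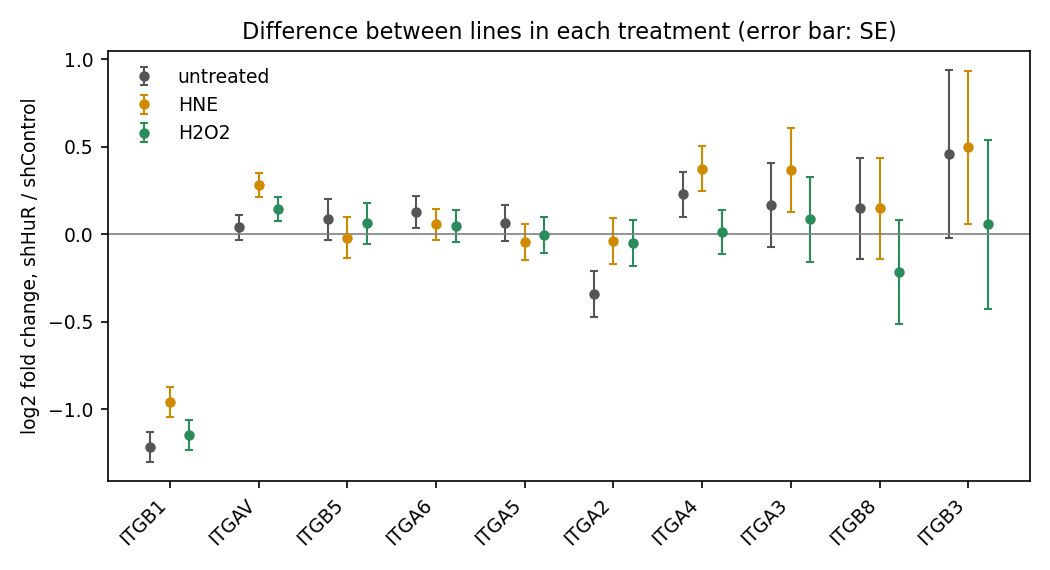
Log2 fold change of shHuR against shControl for each subunit in untreated, HNE-treated and H2O2-treated cells, with its standard error. ITGB1 lies between -1.21 and -0.96 in the 3 treatments, while the other 9 subunits lie between -0.34 and 0.50.

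The balance between ITGB1 and the 6 α subunits among the members differed between the lines. Summed over the 6 α subunits, the level was 33.2 ± 1.46 FPKM in shControl and 35.4 ± 2.41 FPKM in shHuR (SD, n = 6 each). The ratio of ITGB1 to this sum was 1.92 and 2.00 in untreated, 1.81 and 1.95 in HNE-treated and 2.14 and 1.78 in H2O2-treated shControl cells. In shHuR cells it was 0.842 and 0.809 untreated, 0.837 and 0.899 with HNE and 0.802 and 0.888 with H2O2. ITGB1 RNA thus exceeded the summed RNA of these 6 α subunits in all 6 shControl libraries and lay under it in all 6 shHuR libraries. The sum leaves out other α subunits, among them ITGAE (mean 19.0 CPM in shControl and 25.7 CPM in shHuR). ITGB1 made up 87.2% ± 1.24 of the RNA of the 4 β subunits in shControl and 75.4% ± 1.00 in shHuR (SD, n = 6 each), and the 3 other β subunits together stood at 9.42 ± 0.948 and 9.76 ± 0.870 FPKM. These ratios rest on the ITGB1 difference itself and are not separate evidence of it. Protein at the cell surface was not analysed here.

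The HNE response was not used to choose the subunits. The HNE-treated and untreated libraries did enter the line differences on which ITGB1 was picked. The ITGB1 response within a line, and its difference between the lines, are therefore not independent of that choice. Over both lines none of the 10 passed edgeR's test adjusted over all genes, where 0.247% of 15780 tested genes did, and 4 of 10 had an unadjusted p under 0.05 (12.3% of all genes). None of the 10 passed with DESeq2 or with limma on FPKM either. The 4 were ITGAV, ITGA5, ITGB5 and ITGB3, all with a higher mean under HNE, while ITGB1 had an unadjusted p of 0.0562. The largest of the well-measured differences was that of ITGAV, at 0.20 on the log2 scale (SE 0.0620, edgeR unadjusted p = 0.00677, adjusted p = 0.233). ITGA5 had 0.18 (95% interval 0.02 to 0.34, adjusted p = 0.344) and ITGB5 0.18 (95% interval 0.01 to 0.35, adjusted p = 0.378), both by edgeR. ITGB3 had 0.70 with an interval of 0.01 to 1.39, and its HNE-treated shControl replicates held 45 and 15 counts.

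Within the lines the HNE values of ITGAV and ITGB1 stood further from the untreated ones in shHuR. ITGAV was at 107.5 and 96.4 CPM in untreated and 130 and 124 CPM in HNE-treated shHuR cells, and at 100.4 and 98.0 CPM in untreated and 105 and 104 CPM in HNE-treated shControl cells. In both lines the treated replicates lay above the untreated ones, as they did for 21.6% of all tested genes in shHuR and 19.3% in shControl. The log2 fold change of ITGAV was 0.32 in shHuR (SE 0.0690, edgeR adjusted p = 0.118) and 0.08 in shControl (SE 0.0692, edgeR adjusted p = 0.700). Of all genes, 107 were called for HNE in shHuR with DESeq2 and 198 in edgeR with all genes kept, against 12 in the main fit. The shHuR value of ITGAV passed in those more permissive fits (0.32, DESeq2 adjusted p = 0.0220, and 0.315, edgeR adjusted p = 0.0240). Over the 22 alternative fits its adjusted p ran from 0.022 to 0.91, the highest being without replicate 1 of the HNE-treated shHuR group (0.28). The difference between the lines was 0.24 (SE 0.0977, edgeR unadjusted p = 0.0275, adjusted p = 0.712).

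With HNE the log2 fold change of ITGB1 was 0.255 in shHuR (SE 0.0855, edgeR adjusted p = 0.355) and of 0.00 in shControl (95% interval -0.18 to 0.18). The difference between the lines was 0.26 (95% interval -0.0006 to 0.51, edgeR unadjusted p = 0.0505, adjusted p = 0.732). By edgeR with the filter on low counts no member was called for HNE in either line. Of all genes 0.0187% were called in shControl and 0.075% in shHuR. These shares stand for 3 and 12 genes, and with 1 library left out the former ran from 0 to 859 (without HNE-treated shControl replicate 1) and the latter from 3 to 62, with 0 members called in each of these fits. The members with an unadjusted p under 0.05 were 1 in shControl (ITGA5) and 2 in shHuR (ITGB1 and ITGAV), against 11.7% and 8.95% of all genes. For the difference of the HNE response between the lines 0 members passed edgeR, DESeq2 or limma, and 1 (ITGAV) had an unadjusted p under 0.05 (6.73% of all genes).

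H2O2 at 18 h left no member called. Over both lines 0 of 10 passed edgeR, DESeq2 or limma, and 0 had an unadjusted p under 0.05, where 0% of 15801 genes passed edgeR and 5.45% had an unadjusted p under 0.05. The 95% intervals were narrow for the abundant subunits, at -0.11 to 0.14 for ITGB1, -0.13 to 0.08 for ITGAV, -0.11 to 0.14 for ITGA6, -0.13 to 0.19 for ITGB5 and -0.14 to 0.16 for ITGA5. They were wider for ITGA2 (-0.12 to 0.22), ITGA4 (-0.13 to 0.28) and ITGA3 (-0.47 to 0.16), and widest for ITGB3 (-0.79 to 0.58) and ITGB8 (-0.74 to 0.22). Within shControl and within shHuR 0 members passed and 0 had an unadjusted p under 0.05 (4.34% and 3.37% of all genes). For the difference of the H2O2 response between the lines 0 members passed, and 0 had an unadjusted p under 0.05 (3.62% of all genes). The HNE and H2O2 comparisons share the untreated libraries.

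**Figure D4:**
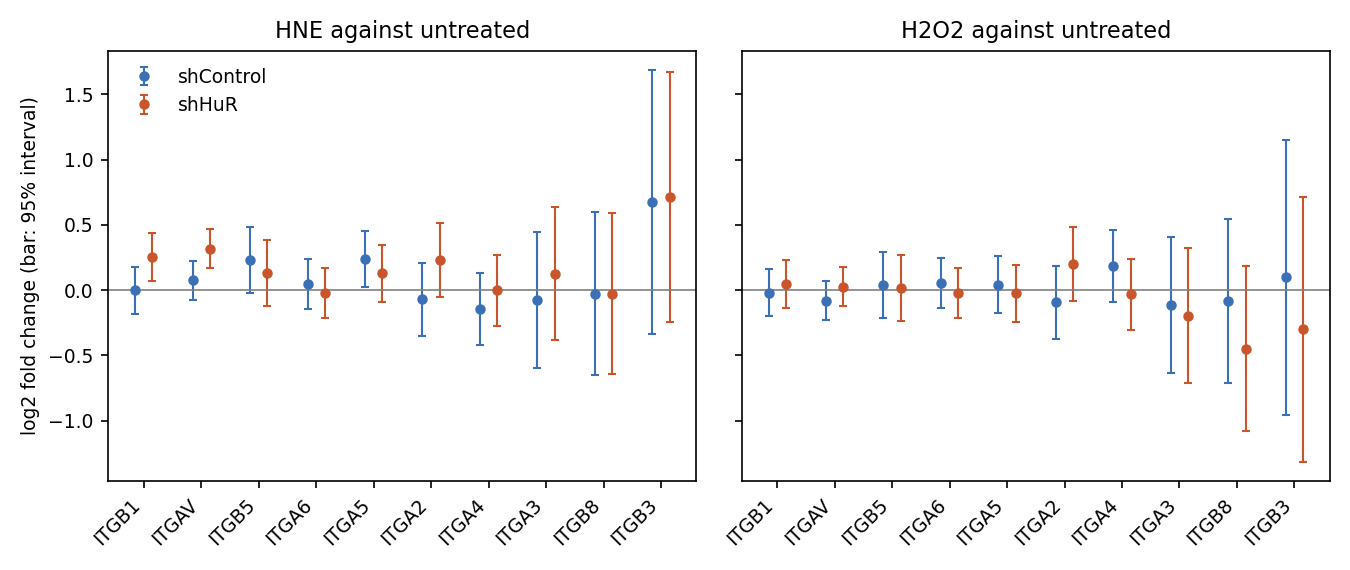
Log2 fold change of HNE (left) and H2O2 (right) against untreated cells for each subunit in shControl and shHuR, with 95% intervals. The intervals of ITGB1 and ITGAV with HNE lie above 0 in shHuR (0.07 to 0.44 and 0.17 to 0.46) and include 0 in shControl, that of ITGA5 lies above 0 in shControl (0.02 to 0.45) and includes 0 in shHuR (-0.09 to 0.34), and those of ITGB8 and ITGB3 are the widest.

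Of the 16 integrin subunits outside the 10, 12 passed the filter on low counts and were tested between the lines. Of these ITGA10, ITGA11, ITGAD, ITGAL, ITGB4 and ITGB7 are too low to judge, like ITGB3 and ITGB8. Their highest counts in a library ran from 20 (ITGAD) to 57 (ITGB7). Over all treatments 4 rose and 1 fell in shHuR, or 5 of 12, the 4 including ITGA11. Of all tested genes 14.1% rose and 15.9% fell. Within single treatments 0 of the 12 were called in untreated cells, 1 with HNE (ITGAE) and 0 with H2O2. The shares of all tested genes called there were 7.98%, 8.27% and 7.19%. ITGAE, the αE subunit that binds E-cadherin, rose from 19.0 ± 2.07 to 25.7 ± 2.51 CPM (SD, n = 6 each), by 0.44 on the log2 scale (SE 0.0759, edgeR adjusted p = 0.000335). The β1 partners ITGA8 (0.30, edgeR adjusted p = 0.0221) and ITGA1 (0.24, adjusted p = 0.0448) also rose. ITGA11 was called higher (1.2, edgeR adjusted p = 0.0179) but is too low to judge, with at most 23 counts. The platelet subunit ITGA2B fell by 0.33 on the log2 scale (edgeR adjusted p = 0.0441). ITGAE was called in all 21 alternative fits, whereas ITGA1 lost its call in 13 and ITGA2B in 16. ITGA8 lost it in 4 of 21, all with 1 library left out (adjusted p up to 0.0588), and ITGA11 in 2 of 18 (up to 0.0536), without HNE-treated shHuR replicate 2 or untreated shControl replicate 1. The count of 5 was 1 without replicate 2 of the HNE-treated shHuR group, 2 without HNE-treated shControl replicate 1, and 3 when any 1 of 7 other libraries was left out. It was 4 higher and 0 lower when libraries were scaled by size alone. The leukocyte subunits ITGB2, ITGAM and ITGAX and the epithelial subunit ITGB6 were not tested, with at most 9 counts in a library.

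On the cytoplasmic side, integrin tails bind talins and kindlins, which switch the receptor on, and the ILK, PINCH (LIMS1) and parvin complex, which links it to actin. Of 34 such genes 32 were tested, and 11 rose and 3 fell in shHuR (14 of 32, against 29.9% of all tested genes, median log2 fold change 0.05). The actin cross-linkers ACTN4 (0.33, edgeR adjusted p = 0.000286) and ACTN1 (0.29, adjusted p = 0.000564), PARVA (0.28, adjusted p = 0.00373) and the kindlin FERMT1 (0.60, adjusted p = 0.0198) rose. LIMS1 fell from 78.0 ± 6.35 to 57.9 ± 4.01 CPM (SD, n = 6 each), by 0.43 on the log2 scale (SE 0.0560, edgeR adjusted p = 2.19e-05). It was also called in untreated and H2O2-treated cells. PARVB fell by 0.19 and the adaptor CRKL by 0.14 (edgeR adjusted p = 0.0390 and 0.00605). Within a single treatment ACTN1 was called in untreated cells and ACTN4 with HNE. PARVA, FERMT1, PARVB and CRKL were called in no single treatment. FERMT1, with at most 77 counts, lost its call without replicate 2 of the H2O2-treated or the untreated shHuR group or without replicate 1 of the untreated shControl group (0.50 to 0.54), and PARVB in 12 of 21 alternative fits. The count of 14 was 9 without replicate 1 of the H2O2-treated shHuR group or either replicate of the HNE-treated shHuR group.

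Of 42 ligands, mostly matrix proteins, 37 were tested, and 4 rose and 9 fell in shHuR (median log2 fold change -0.07). The 13 called of 37 stand close to the 29.9% called of all tested genes. FBN1, the microfibril protein fibrillin-1, rose from 26.2 ± 1.52 to 44.8 ± 1.01 CPM (SD, n = 6 each), by 0.77 on the log2 scale (SE 0.0496, edgeR adjusted p = 1.16e-08), and was called in each treatment. LAMA3, a laminin α chain, fell from 62.0 ± 4.77 to 45.2 ± 4.0 CPM (SD, n = 6 each), by 0.46 on the log2 scale (SE 0.0552, edgeR adjusted p = 1.04e-05), and was also called in each treatment. The basement membrane genes COL4A6 (-0.39, edgeR adjusted p = 5.52e-05), LAMA5 (-0.35, adjusted p = 0.00288) and COL4A3 (-0.59, adjusted p = 0.0225) fell. TGFB1 (0.46, edgeR adjusted p = 0.0308), LAMA2 (0.74, adjusted p = 0.0480) and FN1 (0.15, adjusted p = 0.0253) rose. Within single treatments COL4A6 was called with HNE and with H2O2. LAMA5, COL4A3, TGFB1, LAMA2 and FN1 were called in no single treatment.

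Some of these ligand calls were fragile. With 1 library left out, LAMA2 lost its call in 9 of 12 fits, FN1 and TGFB1 in 6 of 12 each, and COL4A3 in 3 of 12 (without replicate 1 of the H2O2-treated or HNE-treated shHuR group or replicate 2 of the untreated shHuR group, at -0.55 to -0.50). The count of 13 was 8 without replicate 1 of the H2O2-treated or replicate 2 of the untreated shHuR group. FN1, the fibronectin that α5β1 binds, was also the 1 gene of all the lists called for HNE over both lines, where it fell by 0.34 on the log2 scale (SE 0.0595, edgeR adjusted p = 0.0344). Of all genes 0.146% were called lower there. The FN1 call was lost in 10 of 17 alternative fits, 6 of them with 1 library left out, and the value over those 10 lay between -0.424 and -0.315.

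Of 15 membrane proteins that associate with integrins, 14 were tested and 1 was called, against 29.9% of all tested genes. The tetraspanin CD9 fell from 25.3 ± 1.90 to 17.7 ± 2.2 CPM (SD, n = 6 each), by 0.52 on the log2 scale (SE 0.0757, edgeR adjusted p = 6.81e-05). The gene was called in all 21 alternative fits. Within single treatments it was called in untreated and H2O2-treated cells but not with HNE (edgeR adjusted p = 0.0525). The count was 2 without HNE-treated shControl replicate 2.

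**Figure D5:**
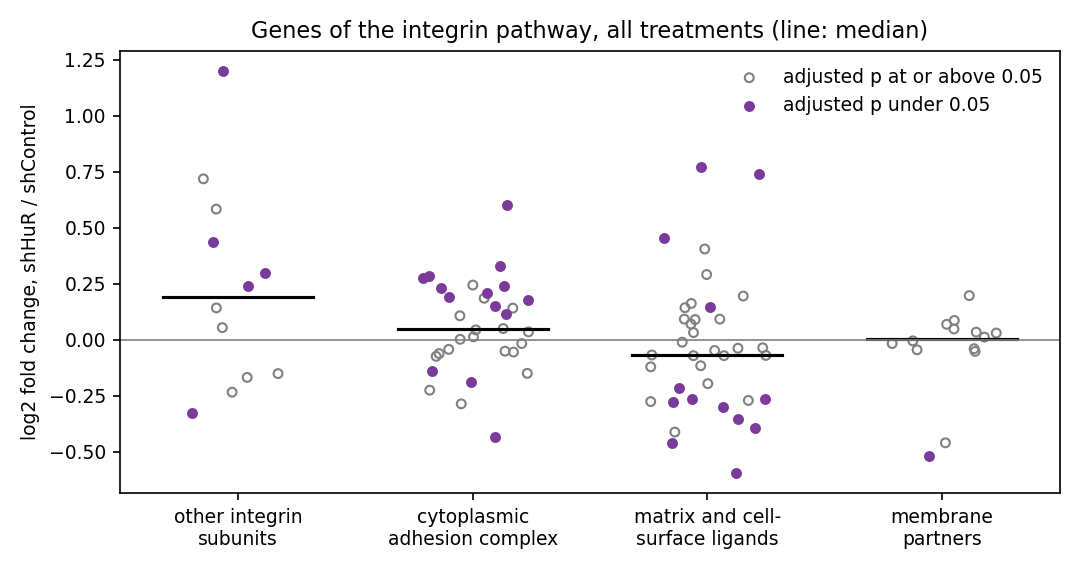
Log2 fold change of shHuR against shControl over all treatments for each tested gene of 4 lists, filled where edgeR's adjusted p was under 0.05, with a line at each list's median (0.19, 0.05, -0.07 and 0.00 from left to right). Of the filled points 4 of 5, 11 of 14, 4 of 13 and 0 of 1 lie above 0.

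Genes whose level followed ITGB1 most closely were sought by Pearson's r of log2 CPM over the 12 libraries, among 11268 genes with at least 5 CPM. The 5 highest were LBR (0.993), RASEF (0.991), CD46 (0.990), ARHGAP19 (0.990) and THUMPD1 (0.988), and the 3 most opposite were ITPK1 (-0.990), CCDC90A (-0.985) and TTLL12 (-0.985). The libraries fall into the 2 lines, which sets these values, and ARHGAP19 had fractional counts. LBR was at 468 ± 15.8 CPM in shControl and 350 ± 12.6 CPM in shHuR and CD46 at 138 ± 6.35 and 95.2 ± 4.61 CPM (SD, n = 6 each), so both differed less between the lines than ITGB1. ITPK1 was at 14.2 ± 1.83 and 31.5 ± 2.75 CPM.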

How the data were processed

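Per the submitters' processing notes, the tools used were cutadapt 1.8, Bowtie2 2.2, TopHat2 2.1, Cufflinks 2.2, Cuffnorm and Cuffdiff with the build GRCh37 (hg19); their order is not given in the sources used here, nor whether counting used strand. The libraries were strand-specific, after removal of ribosomal RNA, per the labels' protocols. The authors deposited estimated counts per gene symbol, of which 2.25% of values (701 genes, none of the 10 subunits) are not whole, and these were rounded. The deposited FPKM values were scaled for length and library by the authors and were used for levels between genes and for alternative fits. Of the 10 subunits, 8 overlap an annotated gene on the opposite strand, and none of those genes has a row in the table.

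Genes were filtered with filterByExpr (minimum count 10), scaled with TMM and tested with edgeR 4.0.16 (quasi-likelihood F-test, Benjamini-Hochberg over all genes, threshold 0.05). Within-treatment comparisons and interactions used 6 group means over 12 libraries, the average line effect treatment as a covariate, and the average treatment effects 8 libraries with line as a covariate. SE is the log2 fold change divided by the square root of F, and intervals use the test's degrees of freedom. The labels call the replicates biological without saying what was kept separate, so p-values measure the spread between these cultures. Depth gives the counting errors stated with the counts. TNS2 and NRROS were matched through older symbols (TENC1, LRRC33).

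The members, gene lists and tests were chosen with earlier results of these data known. Named genes were the 10 subunits, up to 4 called genes in each direction from each other list, list genes called for a treatment, and the genes most like ITGB1. Alternatives were DESeq2 1.42.0, other scalings, other filters and the replicate number as a block. Further fits left out each library in turn or were restricted to the groups compared. In addition, limma 3.58.1 was run on log2(FPKM + 1) with and without a minimum mean FPKM of 1, and on log2(FPKM + 0.1) with that minimum. limma's fold changes include the pseudocount and so understate the change of low genes. Transcript sequences and positions are from GENCODE release 29 (GRCh38), taking each gene's transcript with the longest 3′ UTR. It is another build than the authors', and 84.9% of tested genes matched. The fits were tested on simulated counts drawn from the means and library sizes of these libraries.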

Additional observations from a re-analysis of the deposited data

How the results depend on the processing

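Counts of called members kept to within 1.5 times for every comparison and alternative not named here, and the log2 fold change of ITGB1 between the lines kept its sign in all fits run. The count in untreated cells was 2 in place of 1 without a filter on low counts and with the compared groups alone, and 1 to 2 with a library left out. With HNE it was 1 in place of 2 with limma on log2(FPKM + 1) without a filter and with the compared groups alone, and 1 to 2 with a library left out. For HNE in shHuR it was 1 in place of 0 with DESeq2 and without a filter on low counts. The causes were not tested. Of the other integrin subunits, 5 were called between the lines, against 3 with all genes kept, 2 with limma on log2(FPKM + 1) and on log2(FPKM + 0.1), 3 with the former unfiltered, and 1 to 5 with a library left out. The cytoplasmic list had 9 calls in place of 14 with limma on log2(FPKM + 1) unfiltered and 9 to 14 with a library left out, the ligands 8 to 14 and the membrane partners 1 to 2.

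Same-numbered replicates showed little shared deviation (correlations of -0.081 to 0.107 over 15 pairs of groups, 1 over 0.1). These values cannot tell whether same-numbered libraries were prepared together, which the labels do not say. With the replicate number as a block 3 of the other integrin subunits were called in place of 5, FN1 lost its HNE call, and the counts of members stayed within 1.5 times.

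Signs changed for treatment values near 0. With a library left out, the HNE value over both lines ran from -0.133 to 0.086 for ITGB8, -0.101 to 0.130 for ITGA3 and -0.023 to 0.059 for ITGA6. For H2O2 it ran from -0.040 to 0.073 for ITGB1, -0.248 to 0.143 for ITGB3, -0.030 to 0.085 for ITGB5, -0.007 to 0.110 for ITGA2, -0.026 to 0.060 for ITGA5 and -0.013 to 0.060 for ITGA6. ITGB1 with HNE in shControl (-0.001) was 0.001 without a filter on low counts, 0.002 in the 3 limma fits, 0 with the compared groups alone and -0.032 to 0.027 with a library left out. Where leaving out a library leaves a group with 1, that library is taken to vary like the others. Over all genes, 39 were called for HNE over both lines, against 1 with limma on log2(FPKM + 1) unfiltered and 334 in edgeR with all genes kept. For H2O2 the count was 0, against 117 without that filter. Depth limits ITGB3 and ITGB8.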
